A study of Homo sapiens with 12 samples.

Results

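The transcripts followed here are those of 7 genes of the EGF receptor family and its ligands in LX-2, a line of human hepatic stellate cells. They are the ligands HBEGF, AREG, EREG and TGFA and the receptors EGFR, ERBB2 and ERBB3, taken by gene name from the 58735 genes of the deposited count table, and all 7 were among the 18560 genes tested. Each of the 4 groups holds 3 libraries of one cell line labelled wild type. SiNAT10_TGFB cells were transfected with siRNA against NAT10 with a Lipofectamine reagent and, 48 h later, given TGF-β1 at 5 ng/ml for 24 h. SiNAT10 cells received the siRNA without TGF-β1, and their harvest time was not given in the sources used here. TGFB cells received TGF-β1 at 5 ng/ml for 24 h without siRNA, and con cells were untreated. No control siRNA group is named, so transfection and knockdown of NAT10 cannot be told apart. Time in culture may also differ between the groups, including SiNAT10 and SiNAT10_TGFB, and cannot be told apart from the treatments. The libraries are labelled biological replicates with no separate cultures named, and the spread behind each p-value is that between these samples, which may be technical.

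The 4 ligands are made as membrane-anchored precursors, and proteases of the ADAM family release them from the cell surface. Released ligand binds EGFR, which pairs with itself or with another receptor of the family and signals through RAS and the kinase ERK. ERBB2 binds no known ligand and acts as a partner of the other receptors, while ERBB3 binds neuregulins and has little kinase activity of its own. Stellate cells respond to EGFR ligands with growth and migration, and TGF-β1 is the main cytokine that turns them into matrix-producing myofibroblasts. NAT10 is an RNA cytidine acetyltransferase of the nucleolus.

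Total gene counts ran from 25877008 to 28311434 in the 6 siRNA libraries and from 29797990 to 35132582 in the other 6, and a value of 3 counts corresponded to 0.0871 to 0.115 CPM. NAT10 stood at 15.8 to 20.7 CPM in the 6 siRNA libraries and at 62.9 to 69.9 CPM in the 6 others, so the libraries matched their labels in this respect. Of 16 stellate cell markers, 10 or 11 reached a mean of 1 CPM in each group, with COL1A1 the most abundant, while LRAT and DCN had no counts in any library. Among 10 hepatocyte markers SERPINA1 alone reached 1 CPM, and TTR and FGB had no counts. Of 10 macrophage and leukocyte markers, 2 or 3 reached 1 CPM. Of 10 epithelial markers, 5 reached 1 CPM, led by KRT8 and KRT18, and of 10 endothelial markers, 2 did, led by TIE1. In bulk RNA, fewer cells of a type and less RNA per cell cannot be told apart.

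Given alone, TGF-β1 came with more HBEGF and with less AREG and ERBB3, while EREG was close to the limit of counting. The siRNA came, with or without TGF-β1, with more AREG, TGFA and EGFR and with less ERBB2. The EGFR difference without TGF-β1 was no longer called with a trend on transcript GC content removed. HBEGF was the one member for which the effect of TGF-β1 differed between transfected and untransfected cells by the test of that difference.

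The 250 bases before the RefSeq starts of AREG, EREG and HBEGF are shown because they differ in the motifs they hold. EREG (ENSG00000124882, chr4:74365143-74388751, plus strand) and AREG (ENSG00000109321, chr4:74445134-74455009, plus strand) lie in the same orientation on hg38 with 56382 bases between them, and 1 annotated gene, AC021180.1, lies in that gap. HBEGF (ENSG00000113070, chr5:140332843-140346631) is on the minus strand of another chromosome. The sequences are from RefSeq on GRCh38.p14, are written 5′ to 3′ on the strand of the gene, and end at the base before the RefSeq start, which lies 2 bases downstream of the gene start given above for AREG and for EREG and 28 bases downstream for HBEGF. Capitals mark the matches to the motifs searched.
AREG chr4:74444886-74445135: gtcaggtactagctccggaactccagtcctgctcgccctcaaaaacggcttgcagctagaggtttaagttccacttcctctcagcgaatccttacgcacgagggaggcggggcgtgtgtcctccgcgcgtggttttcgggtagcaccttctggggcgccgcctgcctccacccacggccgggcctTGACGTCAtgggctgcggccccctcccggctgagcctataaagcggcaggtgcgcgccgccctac
EREG chr4:74364895-74365144: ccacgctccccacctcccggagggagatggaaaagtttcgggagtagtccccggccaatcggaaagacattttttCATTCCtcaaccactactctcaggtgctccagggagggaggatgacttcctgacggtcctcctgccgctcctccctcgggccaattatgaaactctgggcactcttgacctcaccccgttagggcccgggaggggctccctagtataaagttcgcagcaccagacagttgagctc
HBEGF chr5:140346604-140346853: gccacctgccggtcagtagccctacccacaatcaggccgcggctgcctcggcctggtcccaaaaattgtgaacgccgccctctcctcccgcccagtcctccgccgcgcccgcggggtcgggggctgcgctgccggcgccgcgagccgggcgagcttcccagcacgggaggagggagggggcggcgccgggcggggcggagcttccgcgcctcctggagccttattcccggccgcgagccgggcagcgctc
Motifs were searched as letters on both strands, namely AP-1 as TGANTCA, the cAMP response element (CRE) as TGACGTC, the SMAD element as GTCTAGA, TEAD as GGAATG and NF-kB by its consensus. The AREG window held 2 overlapping CRE matches, 65 and 64 bases before the start, which together form an 8-base palindrome. The EREG window held 1 TEAD match, 175 bases before the start, and the HBEGF window held none of the 5 motifs. A CRE match was present in 3.12% and a TEAD match in 11.9% of 35116 promoter windows of the same length. Of the other members, RefSeq windows were matched for TGFA, EGFR and ERBB2. ERBB2 had 1 AP-1 match, 222 bases before its start, and the second of 2 listed EGFR starts had 2 AP-1 matches, at 232 and 136 bases, and 1 TEAD match, at 114 bases. The first of 2 listed TGFA starts had 1 NF-kB match, at 219 bases. AP-1 matches were present in 6.57% and NF-kB matches in 5.21% of all windows. The windows shown were chosen after this search of 5 motifs in 8 windows, so their difference is no result. The share of a single motif understates how often such a search finds some match. These are matches of letters and show no binding.

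Levels are given as CPM, which are counts scaled to a common library size by TMM. HBEGF, a heparin-binding ligand of EGFR, stood at 146.9, 145.5 and 156.7 CPM in SiNAT10_TGFB, at 142.8, 136.9 and 133.5 CPM in SiNAT10, at 144.4, 141.0 and 137.9 CPM in TGFB, and at 80.4, 89.9 and 88.8 CPM in con. The con libraries were the 3 lowest, and no library of another group overlapped them. The mean was 1.63-fold higher in TGFB than in con, or 0.71 as log2 (SE 0.061, adjusted p = 3.78e-09). It was 1.60-fold higher in SiNAT10 than in con, or 0.67 as log2 (SE 0.061, adjusted p = 3.02e-09). Both comparisons rest on the same con libraries.

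Neither agent added to the HBEGF level reached with the other by an amount that passed the test. SiNAT10_TGFB differed from SiNAT10 by a log2 value of 0.12 (95% interval −0.01 to 0.25, adjusted p = 0.258) and from TGFB by 0.09 (95% interval −0.04 to 0.21, adjusted p = 0.249). With libraries scaled by their size alone, the difference of SiNAT10_TGFB from TGFB was called, at 0.22 (adjusted p = 0.00336), while the median of all genes was then 0.14. The interaction, which is the log2 effect of TGF-β1 with siRNA minus that without, was −0.59 (SE 0.086, adjusted p = 0.000128).

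**Figure D1:**
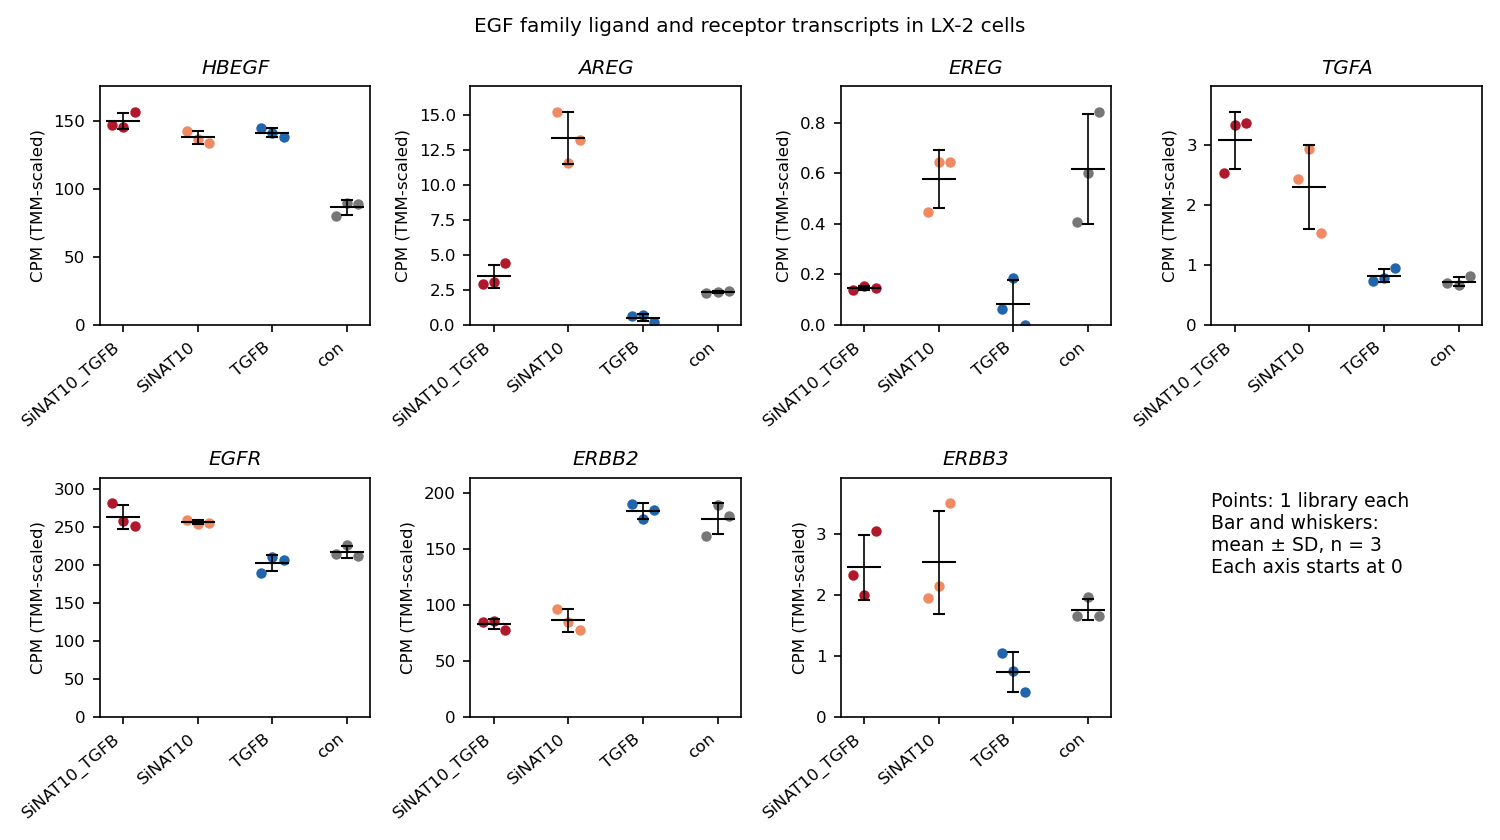
Level of each member in every library, as TMM-scaled CPM on axes that start at 0. Points are libraries, and the bar and whiskers give the mean and SD (n = 3). HBEGF is lowest in the con libraries, AREG is highest in SiNAT10, and ERBB2 is at 76.9 to 96.4 CPM in the siRNA libraries against 161.7 to 190.2 CPM in the others.

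AREG encodes amphiregulin, another ligand of EGFR. It stood at 2.91, 3.07 and 4.46 CPM in SiNAT10_TGFB, at 15.3, 11.6 and 13.2 CPM in SiNAT10, at 0.617, 0.746 and 0.236 CPM in TGFB, and at 2.29, 2.33 and 2.44 CPM in con. The 4 groups did not overlap, with SiNAT10 highest and TGFB lowest. The TGFB values rest on 20, 24 and 7 counts.

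TGF-β1 came with less AREG in both settings. The level was 4.34-fold lower in TGFB than in con, or −2.12 as log2 (SE 0.28, adjusted p = 2.89e-06), and 3.84-fold lower in SiNAT10_TGFB than in SiNAT10, or −1.94 as log2 (SE 0.20, adjusted p = 2.18e-07). The siRNA came with more AREG in both settings. It was 6.41-fold higher in SiNAT10_TGFB than in TGFB (log2 2.68, SE 0.27, adjusted p = 1.58e-08) and 5.67-fold higher in SiNAT10 than in con (log2 2.50, SE 0.21, adjusted p = 7.99e-10). The interaction was 0.18 (95% interval −0.53 to 0.88, adjusted p = 0.871), which leaves room for sizeable differences in either direction. It turned negative without TGFB replicate 3 (−0.15), without SiNAT10_TGFB replicate 3 (−0.03) and on log2(FPKM + 1) (−0.67).

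EREG, epiregulin, a ligand of EGFR and ERBB4, was near the limit of counting. It had 4, 4 and 4 counts in SiNAT10_TGFB, 13, 18 and 18 in SiNAT10, 2, 6 and 0 in TGFB, and 14, 18 and 27 in con. The 6 libraries given TGF-β1 were all below the 6 without it. EREG passed the filter on low counts only through the con and SiNAT10 groups. The highest library given TGF-β1 had 0.186 CPM, below the cutoff of 0.344 CPM. EREG was thus tested because it was high without TGF-β1, and its fitted values are given as a description.

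The counts summed to 8 in TGFB and 59 in con, and the fitted log2 fold change was −2.81 (95% interval −4.25 to −1.36, adjusted p = 0.00418). Of the 8 TGFB counts, 6 were in replicate 2, and the value was −4.10 without that library and −2.28 without TGFB replicate 3. In a fit with no filter on low counts it was −2.82 (adjusted p = 0.00152). In the presence of siRNA they summed to 12 in SiNAT10_TGFB and 49 in SiNAT10, or −1.96 as log2 (SE 0.67, adjusted p = 0.0629). That difference was called with DESeq2 (adjusted p = 0.0331), with a fit of those groups alone (adjusted p = 0.0440), with library size scaling (adjusted p = 0.0483) and without TGFB replicate 3 (adjusted p = 0.0467). In each of these fits EREG passed the filter through groups without TGF-β1, so the calls are a description and no support. The siRNA contrasts of EREG were not called. They were 0.76 (95% interval −0.94 to 2.46, adjusted p = 0.461) for SiNAT10_TGFB against TGFB and −0.09 (95% interval −1.26 to 1.08, adjusted p = 0.906) for SiNAT10 against con.

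TGFA encodes TGF-α, an EGFR ligand unrelated in sequence to TGF-β1. It stood at 2.53, 3.34 and 3.37 CPM in SiNAT10_TGFB, at 2.44, 2.93 and 1.54 CPM in SiNAT10, at 0.741, 0.777 and 0.945 CPM in TGFB, and at 0.697, 0.667 and 0.812 CPM in con. All 6 siRNA libraries were above all 6 others. TGFA was 3.74-fold higher in SiNAT10_TGFB than in TGFB (log2 1.90, SE 0.28, adjusted p = 4.68e-06) and 3.16-fold higher in SiNAT10 than in con (log2 1.66, SE 0.29, adjusted p = 3.86e-05). Differences with TGF-β1 did not pass the test, at 0.17 without siRNA (95% interval −0.47 to 0.82) and 0.42 with it (95% interval −0.12 to 0.95).

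EGFR (ENSG00000146648, chr7:55019021-55211628), the receptor for all 4 ligands, stood at 281.6, 257.3 and 251.4 CPM in SiNAT10_TGFB, at 259.2, 254.5 and 254.9 CPM in SiNAT10, at 190.0, 210.5 and 206.2 CPM in TGFB, and at 214.6, 226.2 and 211.5 CPM in con. The siRNA libraries were all above the others. EGFR was 1.30-fold higher in SiNAT10_TGFB than in TGFB (log2 0.38, SE 0.059, adjusted p = 8.21e-06). It was 1.18-fold higher in SiNAT10 than in con (log2 0.24, SE 0.059, adjusted p = 0.00167). With a trend on transcript GC content removed from each library, the difference of SiNAT10 from con was 0.08 (adjusted p = 0.167) and was no longer called.

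The TGFB and con groups differed in EGFR by a log2 value of −0.10 (95% interval −0.23 to 0.02, adjusted p = 0.220). It was called under library size scaling (−0.24, adjusted p = 0.00317, with the median of all genes at −0.14) and with the GC trend removed (−0.13, adjusted p = 0.0473). SiNAT10_TGFB differed from SiNAT10 by 0.04 (95% interval −0.08 to 0.16). Of the exon bases of EGFR, 1.49% are also covered by the antisense gene EGFR-AS1, and no source used here gives the strand setting of the counting.

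ERBB2 (ENSG00000141736, chr17:39687914-39730426) stood at 84.9, 85.0 and 77.4 CPM in SiNAT10_TGFB, at 96.4, 84.2 and 76.9 CPM in SiNAT10, at 190.2, 176.1 and 184.6 CPM in TGFB, and at 161.7, 189.0 and 179.1 CPM in con. Every siRNA library was far below every other library. ERBB2 was 2.23-fold lower in SiNAT10_TGFB than in TGFB, or −1.16 as log2 (SE 0.077, adjusted p = 1.26e-11). It was 2.06-fold lower in SiNAT10 than in con, or −1.04 as log2 (SE 0.076, adjusted p = 8.76e-11). With the GC trend removed these log2 values were smaller, at −0.89 and −0.78, and both were still called.

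ERBB2 differed little with TGF-β1 in either setting. The log2 difference was 0.06 for TGFB against con (95% interval −0.10 to 0.21) and −0.06 for SiNAT10_TGFB against SiNAT10 (95% interval −0.22 to 0.10). The first was −0.078 under library size scaling. ERBB2 shares 7.41% of its exon bases with genes on the other strand, MIEN1 and PGAP3, so reads there cannot be assigned with certainty.

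ERBB3 (ENSG00000065361, chr12:56076799-56103505) was a low transcript. It stood at 2.32, 2.00 and 3.04 CPM in SiNAT10_TGFB, at 1.96, 2.14 and 3.51 CPM in SiNAT10, at 1.05, 0.746 and 0.405 CPM in TGFB, and at 1.66, 1.97 and 1.66 CPM in con. The TGFB libraries were the 3 lowest and overlapped no other group. ERBB3 was 2.37-fold lower in TGFB than in con (log2 −1.25, SE 0.32, adjusted p = 0.00583) and 3.31-fold higher in SiNAT10_TGFB than in TGFB (log2 1.73, SE 0.32, adjusted p = 7.83e-05), and both values rest on the same TGFB libraries. On log2(FPKM + 1), a scale that shrinks low values, the first of these was −0.14 (adjusted p = 0.0940).

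With siRNA in both groups, SiNAT10_TGFB differed from SiNAT10 in ERBB3 by −0.04 (95% interval −0.64 to 0.55, adjusted p = 0.958). The interaction of 1.20 (SE 0.43, adjusted p = 0.146) did not pass the test over all genes, so the effects of TGF-β1 with and without siRNA are not shown to differ. Without SiNAT10 replicate 3, the highest library, the interaction was 1.51 (adjusted p = 0.0415). SiNAT10 against con was 0.53 (95% interval −0.08 to 1.13).

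**Figure D2:**
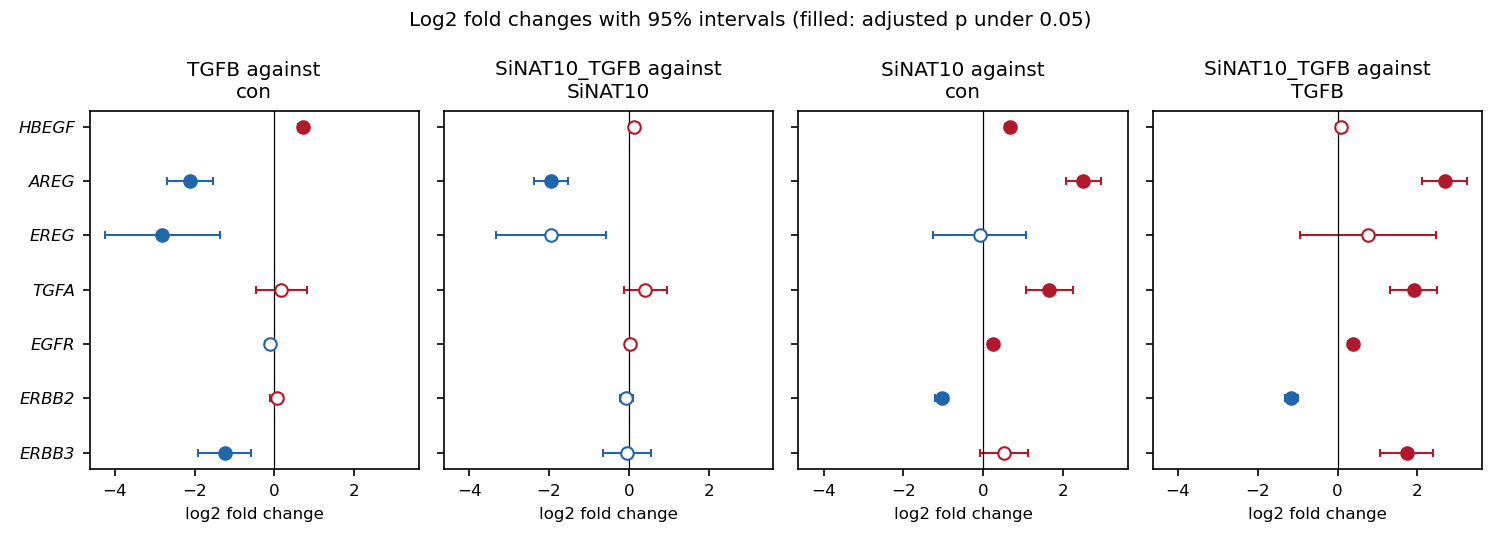
Log2 fold change of each member in the 4 pairwise comparisons, with 95% intervals from edgeR's quasi-likelihood fit. Filled points have an adjusted p under 0.05. AREG is lower with TGF-β1 in both settings and higher with siRNA in both, while ERBB2 lies below 0 in the siRNA comparisons, at −1.04 and −1.16.

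By count, 4 of the 7 members were called in TGFB against con, 1 higher and 3 lower, where 24.1% of all genes tested were called (11.9% higher and 12.2% lower). One of the 3 lower members is EREG, which passed the filter through the groups where it was high, and without it 3 of 6 were called. In SiNAT10_TGFB against TGFB, 5 of 7 were called, 4 higher and 1 lower, where 53.1% of all genes were called (26.3% higher and 26.8% lower). In SiNAT10 against con, 5 of 7 were called, again 4 higher and 1 lower, where 52.8% of all genes were called (26.4% higher and 26.4% lower). AREG alone was called in SiNAT10_TGFB against SiNAT10, where 11.1% of all genes were called (5.92% higher and 5.15% lower). HBEGF alone was called in the interaction, where 3.85% of all genes were called (1.94% higher and 1.91% lower). Each group of libraries enters 2 of the pairwise comparisons, so these counts are not independent of each other. The members were chosen with earlier results of these data known, so the counts are a description.

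The median log2 fold change of the 7 members was −0.10 in TGFB against con, against −0.01 over all genes tested. It was 0.76 in SiNAT10_TGFB against TGFB, against 0.01 over all genes, and 0.53 in SiNAT10 against con, against 0.02 over all genes. In SiNAT10_TGFB against SiNAT10 it was −0.04, against −0.0042 over all genes. With 7 members each median is the value of a single gene. The 0.76 is that of EREG, near the limit of counting, and the 0.53 is that of ERBB3, and neither was called there. These medians therefore show no shift of the family as a whole. Scaling by library size alone moved the median of all genes to −0.14 in TGFB against con and to 0.14 in SiNAT10_TGFB against TGFB, so the direction of log2 fold changes smaller than these depends on the scaling. Under it, 23.4% of the calls in TGFB against con were higher ones, against 49.5% with TMM scaling.

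Summed epithelial markers ran from 805.2 to 873.6 CPM in TGFB and from 535.9 to 591.2 CPM in con, and stellate markers from 8959 to 9579 CPM in TGFB and from 4389 to 4613 CPM in con. In the siRNA groups, the epithelial sum was 579.1 to 612.2 CPM in SiNAT10_TGFB and 576.2 to 652.8 CPM in SiNAT10. The stellate sum was 2196 to 2484 CPM in SiNAT10_TGFB and 1777 to 1862 CPM in SiNAT10. COL1A1 was its largest part in every group. The COL1A1 means were 1364 CPM in SiNAT10_TGFB, 880 CPM in SiNAT10, 7550 CPM in TGFB and 3041 CPM in con. The epithelial gene GRHL2 had no counts in any library. The part of these sums in the members' differences was not tested.

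Levels of different genes were compared per length, as the FPKM deposited by the authors. The length used there is that of all annotated exons of a gene together. It was 3018 bases for HBEGF, 1648 for AREG, 12521 for EGFR and 10321 for ERBB2, and the transcripts made in these cells may be shorter. The order of the genes and the size of ratios and shares between them depend on these lengths. In con, HBEGF was the most abundant member at 28.5 ± 1.71 FPKM (SD, n = 3). EGFR at 17.3 ± 0.633 FPKM and ERBB2 at 17.1 ± 1.34 FPKM followed, and their libraries overlapped. AREG stood at 1.42 FPKM, ERBB3 at 0.194 FPKM, TGFA at 0.146 FPKM and EREG at 0.108 FPKM, the last 2 overlapping. In TGFB, HBEGF at 46.7 ± 0.919 FPKM led ERBB2 at 17.8 ± 0.670 FPKM, which lay just above EGFR at 16.1 ± 0.898 FPKM. AREG at 0.323 FPKM overlapped TGFA at 0.165 FPKM, and ERBB3 at 0.0809 FPKM and EREG at 0.0144 FPKM were below them.

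In the siRNA groups HBEGF was first and EGFR second. SiNAT10_TGFB had 49.7 ± 2.01 FPKM of HBEGF, 21.1 ± 1.29 FPKM of EGFR and 8.0 ± 0.428 FPKM of ERBB2, then AREG at 2.12 FPKM, TGFA at 0.622 FPKM, ERBB3 at 0.272 FPKM and EREG at 0.0256 FPKM, with no overlap between neighbours. In SiNAT10, AREG at 8.12 FPKM reached the level of ERBB2 at 8.32 FPKM, and their libraries overlapped. TGFA at 0.463 FPKM overlapped ERBB3 at 0.280 FPKM in SiNAT10.

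The balance of the 2 main receptors shifted with the siRNA. The ratio of ERBB2 to EGFR in FPKM was 0.380 ± 0.0184 in SiNAT10_TGFB (0.366 to 0.401), 0.406 ± 0.0429 in SiNAT10 (0.366 to 0.451), 1.11 ± 0.101 in TGFB (1.02 to 1.21) and 0.985 ± 0.0618 in con (0.914 to 1.03). All siRNA libraries were below all others. The ratios carry no correction for transcript GC content, which is 57.5% for ERBB2 and 47.5% for EGFR. With the GC trend removed, the siRNA differences of both genes were smaller. HBEGF made up most of the summed FPKM of the 4 ligands, at 94.8 ± 0.837% in SiNAT10_TGFB, 84.1 ± 1.32% in SiNAT10, 98.9 ± 0.317% in TGFB and 94.4 ± 0.256% in con. AREG made up 4.01 ± 0.766% in SiNAT10_TGFB, 14.9 ± 1.51% in SiNAT10, 0.680 ± 0.332% in TGFB and 4.72 ± 0.214% in con. The sum of the 4 was 52.5 ± 2.56 FPKM in SiNAT10_TGFB, 54.3 ± 2.58 in SiNAT10, 47.2 ± 1.02 in TGFB and 30.2 ± 1.77 in con.

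**Figure D3:**
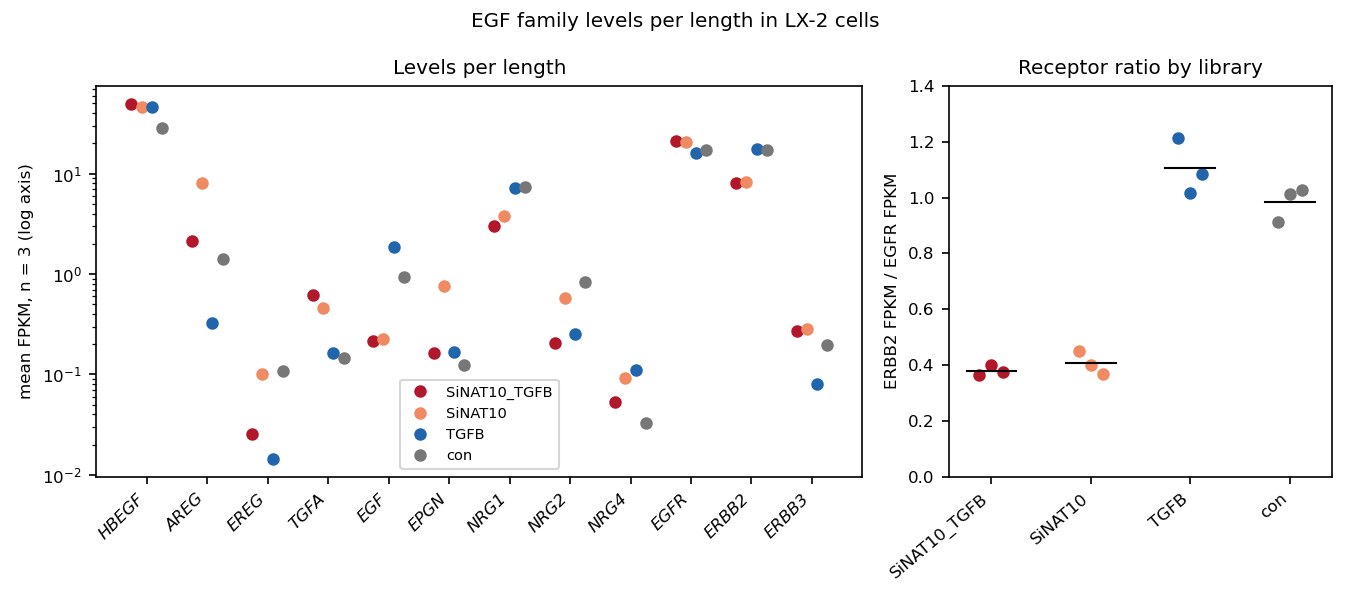
Mean FPKM of the members and of 5 other ligands of the family (log axis; n = 3 libraries per group), and the ratio of ERBB2 to EGFR FPKM in each library with the group mean as a bar. HBEGF leads in all groups, and the ratio is 0.366 to 0.451 in the siRNA libraries and 0.914 to 1.21 in the others.

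The remaining ligands and receptor of the family were looked at next. Of 8 genes, BTC, NRG3 and ERBB4 were too low to test, and ERBB4, the receptor of the neuregulins and EREG, had no counts in any library. NRG1, a ligand of ERBB3, was lower with siRNA, at 34.1 ± 1.82 CPM in SiNAT10_TGFB and 80.8 ± 2.61 CPM in TGFB (log2 −1.24, SE 0.074, adjusted p = 1.74e-12), and at 42.9 ± 2.31 CPM in SiNAT10 and 84.1 ± 6.10 CPM in con (log2 −0.97, SE 0.072, adjusted p = 1.10e-10). EGF, the ligand that names the family, was also lower with siRNA, at 1.31 ± 0.508 CPM in SiNAT10_TGFB and 11.3 ± 1.05 CPM in TGFB (log2 −3.11, SE 0.22, adjusted p = 2.62e-11). It stood at 1.37 ± 0.277 CPM in SiNAT10 and 5.76 ± 0.261 CPM in con (log2 −2.08, SE 0.22, adjusted p = 2.89e-08).

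EPGN, epigen, lies on chromosome 4 beside EREG, at chr4:74308473-74315307, and was higher in SiNAT10 at 1.37 ± 0.444 CPM than in con at 0.224 ± 0.222 CPM (log2 2.61, SE 0.63, adjusted p = 0.00127). Its con value is near the limit of counting, with 21 counts in all and libraries from 0.0312 to 0.467 CPM. In TGFB against con, EGF was higher (log2 0.98, SE 0.18, adjusted p = 0.000264), NRG2 was lower (log2 −1.74, SE 0.30, adjusted p = 9.25e-05), and NRG4 was called higher at an adjusted p of 0.0410. The NRG4 call was lost when any 1 of 7 of the 12 libraries was left out and under 4 other alternatives, and 38.1% of its exon bases are shared with a gene on the other strand. With siRNA in both groups, NRG2 (log2 −1.51, adjusted p = 0.00173) and NRG1 (log2 −0.33, adjusted p = 0.00364) were lower in SiNAT10_TGFB than in SiNAT10. Of the 5 tested, 2 were higher and 1 lower in TGFB against con, 2 were lower in SiNAT10_TGFB against TGFB, 1 was higher and 2 lower in SiNAT10 against con, and 3 were lower in SiNAT10_TGFB against SiNAT10. Over all genes 24.1%, 53.1%, 52.8% and 11.1% were called in these comparisons, and 5 genes are too few to set against those shares.

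Of 13 genes that act on ligand shedding, 4 were higher and 2 lower in TGFB against con, where 11.9% of all genes were higher and 12.2% lower, and the list median was 0.04. The number higher was 2 without con replicate 1 or TGFB replicate 3, and the split was 1 higher and 4 lower with library size scaling. TIMP3, an inhibitor of ADAM proteases, was at 337.0 ± 8.75 CPM in TGFB and 122.0 ± 8.24 CPM in con (log2 1.47, SE 0.067, adjusted p = 4.46e-14). ADAM10, a protease that cleaves EGF and betacellulin precursors, was higher by 0.29 (adjusted p = 0.00117), or by 0.16 (adjusted p = 0.0672) with library size scaling, while the protease ADAM9 was lower by a log2 fold change of −0.31 and CD9, a tetraspanin that binds the HBEGF precursor, by −0.29.

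With siRNA, 3 were higher and 5 lower in SiNAT10_TGFB against TGFB (median 0.01), and 4 were higher and 3 lower in SiNAT10 against con (median 0.03). These numbers are near the share of all genes called in those comparisons, 53.1% and 52.8%. CD9 was at 163.0 CPM in SiNAT10_TGFB and 113.6 CPM in TGFB (log2 0.52, SE 0.070, adjusted p = 1.14e-06), and RHBDF1, an inactive rhomboid that escorts ADAM17, was higher by 0.33. FRMD8, which holds that complex at the cell surface, was lower by a log2 fold change of −0.78 in SiNAT10_TGFB against TGFB and of −0.70 in SiNAT10 against con. ADAM17 itself was called higher in both comparisons. It stood at 37.0 CPM in SiNAT10_TGFB and 30.8 CPM in TGFB, and at 36.6 CPM in SiNAT10 and 32.0 CPM in con. The 4 genes higher in SiNAT10 against con numbered 2 under several alternatives. TIMP3 was at 188.9 ± 15.9 CPM in SiNAT10_TGFB, below the 337.0 CPM of TGFB (log2 −0.84, SE 0.066, adjusted p = 2.56e-10) and above the 113.6 ± 4.99 CPM of SiNAT10 (log2 0.73, SE 0.067, adjusted p = 2.04e-08).

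Inhibitors of EGFR and of RAS-ERK signalling were for the most part higher with siRNA, where 26.3% and 26.4% of all genes were higher. This list, like the others, was chosen with earlier results of these data known. Its counts in all comparisons are thus a description and no support. Of 20 tested, 12 were higher and 3 lower in SiNAT10_TGFB against TGFB (median 0.25, against 0.01 over all genes), and 12 were higher and 5 lower in SiNAT10 against con (median 0.35, against 0.02). The lower ones in SiNAT10_TGFB against TGFB numbered 7 with the GC trend removed and 5 without SiNAT10_TGFB replicate 1. ERRFI1, also called MIG6, which binds and blocks the EGFR kinase, was at 106.4 ± 5.54 CPM in SiNAT10_TGFB, 160.2 ± 8.0 CPM in SiNAT10, 36.8 ± 1.63 CPM in TGFB and 64.5 ± 4.34 CPM in con. It was 2.89-fold higher in SiNAT10_TGFB than in TGFB (adjusted p = 2.18e-14) and 2.48-fold higher in SiNAT10 than in con (adjusted p = 2.37e-13). SPRY4, a Sprouty protein that restrains RAS-ERK signalling, was 3.97-fold and 3.82-fold higher in the same comparisons. CBL, a ubiquitin ligase of active EGFR, was lower in both, at log2 fold changes of −0.31 and −0.46.

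TGF-β1 came with lower levels of several of these inhibitors. In TGFB against con, 7 of 20 were lower and 1 higher (median −0.09), or 11 lower with library size scaling. With TMM scaling, 12.2% of all genes were lower and 11.9% higher. ERRFI1 was 1.75-fold lower (log2 −0.81, SE 0.070, adjusted p = 3.98e-09), and SOCS5, which promotes the breakdown of EGFR, was 1.59-fold lower (log2 −0.67, SE 0.078). LRIG3 was the one gene higher (log2 0.84, SE 0.22). In SiNAT10_TGFB against SiNAT10, 3 of 20 were lower, including ERRFI1 (log2 −0.59, SE 0.067, adjusted p = 7.58e-07) and SOCS5 (log2 −0.48, SE 0.077). Of all genes, 5.15% were lower there.

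Of 16 genes known to follow ERK activity, 13 were higher in each siRNA comparison. The list was chosen with earlier results of these data known, so its excess over all genes is a description and no support. This list of 16 shares SPRY2, SPRY4, SPRED1 and SPRED2 with the list of inhibitors. In SiNAT10_TGFB against TGFB, 13 were higher and 1 lower (median 0.79, against 0.01 over all genes), and in SiNAT10 against con 13 were higher and 2 lower (median 0.92, against 0.02). Over all genes 26.3% were higher and 26.8% lower in the first comparison, and 26.4% and 26.4% in the second. DUSP6, the phosphatase of ERK, stood at 72.0 ± 1.87 CPM in SiNAT10_TGFB, 101.2 ± 5.88 CPM in SiNAT10, 15.5 ± 1.30 CPM in TGFB and 14.3 ± 1.14 CPM in con. That is 4.65-fold higher in SiNAT10_TGFB than in TGFB (adjusted p = 4.63e-16) and 7.06-fold higher in SiNAT10 than in con (adjusted p = 2.00e-17). Genes on the other strand cover 40.5% of the exon bases of DUSP6, 26.5% of those of IER3, 16.5% of those of PHLDA1 and 10.3% of those of CCND1. The immediate early gene EGR1 was lower in SiNAT10_TGFB than in TGFB (log2 −0.88, SE 0.077). Against con, its call in SiNAT10 (log2 −0.19, adjusted p = 0.0464) was lost under most alternatives, and that of EPHA4 (log2 −0.30, adjusted p = 0.0145) without con replicate 3 or SiNAT10 replicate 2.

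With TGF-β1 the same list was mixed. In TGFB against con, 5 of 16 were higher and 6 lower (median −0.05), and in SiNAT10_TGFB against SiNAT10, 3 were higher and 6 lower (median −0.13). Over all genes 11.9% were higher and 12.2% lower in the first comparison, and 5.92% and 5.15% in the second. IER3 was at 256.3 ± 11.3 CPM in TGFB and 92.4 ± 3.70 CPM in con (log2 1.47, SE 0.059), and CCND1, cyclin D1, was higher by 0.76 (SE 0.051). FOSL1, an AP-1 subunit, was at 129.2 ± 6.47 CPM in TGFB and 306.4 ± 13.7 CPM in con (log2 −1.25, SE 0.073), and PHLDA1 was lower by a log2 fold change of −1.43 (SE 0.068). With siRNA in both groups these 4 genes moved in the same directions, at 0.41 for IER3, 0.27 for CCND1, −0.66 for FOSL1 and −0.78 for PHLDA1, all with adjusted p-values of 0.000543 or less. The sizes differed by the interaction, which was −1.06 for IER3, −0.49 for CCND1, 0.59 for FOSL1 and 0.64 for PHLDA1 (adjusted p-values of 0.000913 or less), each change being smaller with siRNA. On the whole list the interaction was called for 8 of 16 genes, 3 higher and 5 lower, where 3.85% of all genes were called (1.94% higher and 1.91% lower). Because of how the list was chosen, this count too is only a description.

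**Figure D4:**
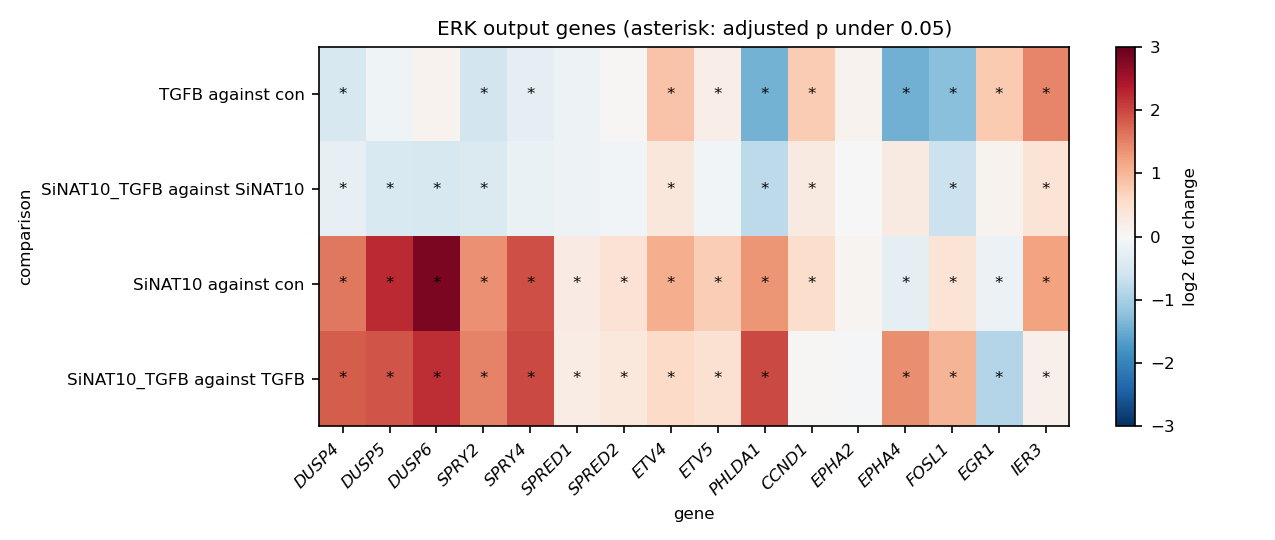
Log2 fold changes of the 16 ERK output genes in the 4 pairwise comparisons (colour scale from −3 to 3). Asterisks mark an adjusted p under 0.05. In each siRNA comparison 13 of the 16 genes are higher, led by DUSP6 at 2.82 in SiNAT10 against con. Of all genes, 26.3% were higher in SiNAT10_TGFB against TGFB and 26.4% in SiNAT10 against con. The list was chosen with earlier results of these data known.

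**Figure D5:**
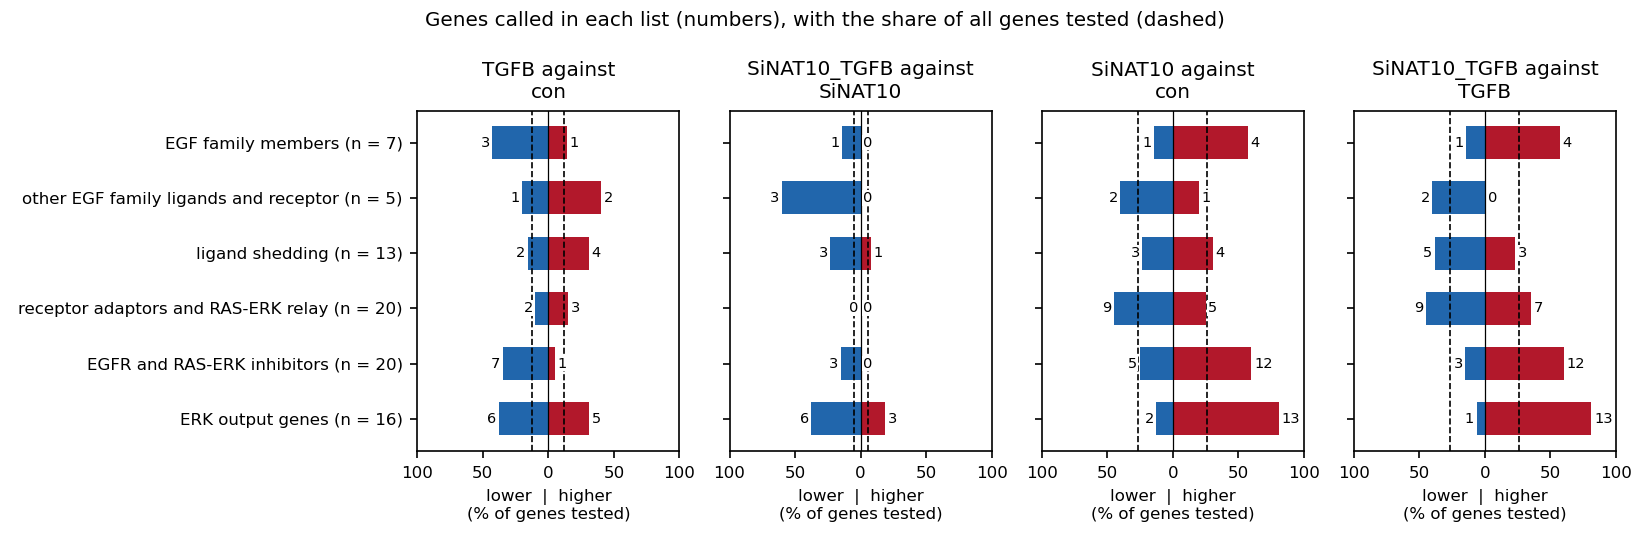
Share of the tested genes of each list called lower (left) or higher (right) in each comparison, in percent, with the number of genes beside each bar. Dashed lines give the same share over all 18560 genes tested. Called inhibitors and ERK output genes lie mostly on the higher side in the siRNA comparisons, 12 of 20 and 13 of 16. The lists were chosen with earlier results of these data known, so the shares are a description.

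Among 13038 other genes with a mean of at least 50 counts, those closest in pattern to each member over the 12 libraries were found by the root-mean-square difference of their centred log2 CPM. HBEGF, whose own spread was 0.321, was matched by RFTN1 at 0.0797 and DKK3 at 0.0913. ERBB2, with a spread of 0.558, was matched by CDK16 at 0.0480 and C20orf27 at 0.0492, and EGFR, with a spread of 0.168, by TOP3A at 0.0472 and FOXO3 at 0.0527.

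The low transcripts had looser matches. TGFA, with a spread of 0.886, came closest to FEM1A at 0.194 and ATF3 at 0.230. AREG, with the widest spread at 1.67, came closest to RELN at 0.467 and AL365181.3 at 0.477. RELN, a stellate cell marker, stood at a mean of 2.03 CPM in SiNAT10_TGFB, 12.4 CPM in SiNAT10, 0.306 CPM in TGFB and 2.51 CPM in con. EREG came closest to PIK3CG at 0.479 and ERBB3 to LINC02535 at 0.329. These likenesses are descriptions over libraries of 4 groups and carry no test.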

How the data were processed

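RNA sequencing was analysed in 12 libraries of LX-2 cells. The authors deposited gene counts and FPKM for 58735 genes, made from reads cleaned with fastp and aligned to hg38 with HISAT2 2.2.1, per the submitters' processing notes. No source used here gives the counting tool or its strand setting. FPKM as deposited followed from the counts with 1 scale factor in each library (0.933 to 1.088). Gene positions were the same as in GENCODE release 29.

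Counts were fitted in R 4.3.3 with edgeR 4.0.16. filterByExpr with its defaults (a cutoff of 0.344 CPM in at least 3 libraries) kept 18560 genes, and TMM factors ran from 0.922 to 1.069. One quasi-likelihood fit of 4 groups was used for 4 pairwise contrasts and an interaction, with Benjamini-Hochberg adjustment over all genes and calls at an adjusted p under 0.05. Intervals are 95%. The SE is the log2 fold change divided by the square root of F. The fits were also run on simulated data with few changed genes, unlike these data, and nothing stated here rests on that run.

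The members and gene lists were chosen with earlier results of these data known. All members are named. From each list, up to 2 called genes per direction with the smallest p were named in a comparison (1 for the interaction), and up to 2 genes closest in pattern. ADAM17 was named outside this rule. Alternatives were library size scaling, DESeq2's scaling alone, DESeq2 1.42.0, limma-voom, no count filter, log2(FPKM + 1) with limma-trend in limma 3.58.1, a GC spline of 5 degrees of freedom, the groups of a comparison alone, a replicate block and omission of each library. Counting error limits genes with few counts.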

Additional observations from a re-analysis of the deposited data

Results flagged for a closer look

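For 11 of the genes named here or by the same rule, the effect of TGF-β1 with siRNA differed from that without it, by the interaction in edgeR's quasi-likelihood fit adjusted over all genes tested. Apart from the member HBEGF, these genes were named through called comparisons of the same fit, in part the interaction itself. Their number is thus partly fixed by the choice. Over all genes tested, 3.85% had a called interaction. For HBEGF the interaction was −0.589 (SE 0.086, adjusted p = 0.000128). TIMP3, the inhibitor of ADAM proteases, had −0.734 (SE 0.094, adjusted p = 2.47e-05), and the protease ADAM12 had −0.821 (SE 0.13, adjusted p = 0.000315). LRIG3 had −1.14 (SE 0.31, adjusted p = 0.0375), with means of 3.01 CPM in SiNAT10_TGFB and 3.71 CPM in SiNAT10, and of 3.97 CPM in TGFB and 2.22 CPM in con. The LRIG3 call was lost under the replicate block, on log2(FPKM + 1) and when any of 9 single libraries was left out.

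The other 7 were ERK output genes. EPHA4, an ephrin receptor, had 1.70 (SE 0.15, adjusted p = 6.41e-08), with means of 18.0 CPM in SiNAT10_TGFB and 14.9 CPM in SiNAT10, and of 6.81 CPM in TGFB and 18.4 CPM in con. PHLDA1 had 0.645 (adjusted p = 0.000111) and FOSL1 0.589 (adjusted p = 0.000913). IER3 had −1.06 (SE 0.081, adjusted p = 1.15e-08), CCND1 −0.491 (adjusted p = 0.00012), EGR1 −0.690 (adjusted p = 0.000294) and DUSP6 −0.601 (adjusted p = 0.00219). EGR1 stood at 110.9 CPM in SiNAT10_TGFB and 103.0 CPM in SiNAT10, and at 203.4 CPM in TGFB and 117.1 CPM in con. Apart from LRIG3, these interactions were called under all alternatives run.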

How the results depend on the processing

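The members called in TGFB against con, SiNAT10_TGFB against TGFB and SiNAT10 against con numbered 4, 5 and 5 with any 1 library left out. With 1 library left out they numbered 1 to 2 in SiNAT10_TGFB against SiNAT10 and 1 to 2 in the interaction. In SiNAT10_TGFB against SiNAT10 they numbered 2, AREG and EREG, with library size scaling, DESeq2 or the groups of the comparison alone. EREG passed the filter only through the groups where it was high, so its calls here and in TGFB against con are a description. All genes called numbered 3572 to 5008 (4472 with all libraries) in TGFB against con, 8938 to 10307 (9857) in SiNAT10_TGFB against TGFB, 8740 to 9877 (9808) in SiNAT10 against con, 1556 to 2112 (2054) in SiNAT10_TGFB against SiNAT10 and 513 to 970 (714) in the interaction, where 1421 were called with the GC trend removed. Library size scaling made 61.3%, 36.7% and 68.9% of the calls higher ones in SiNAT10_TGFB against TGFB, SiNAT10_TGFB against SiNAT10 and the interaction, against 49.6%, 53.5% and 50.4%. Signs turned only where the value was not called. With library size scaling, ERBB2 was −0.0784 in TGFB against con and EGFR −0.0205 in SiNAT10_TGFB against SiNAT10, and the AREG interaction was −0.672 on log2(FPKM + 1). With 1 library left out, ERBB2 in TGFB against con ran from −0.00275 to 0.107, EREG in SiNAT10 against con from −0.325 to 0.198, and the AREG interaction from −0.148 to 0.496. In SiNAT10_TGFB against SiNAT10, EGFR ran from −0.00932 to 0.0735, ERBB2 from −0.132 to 0.0342 and ERBB3 from −0.227 to 0.262. The cause was not tested. Of the smaller list counts, shedding genes higher in SiNAT10 against con numbered 2 instead of 4 without the count filter, in a fit of those groups alone, on log2(FPKM + 1) and without con replicate 1 or 2, those lower numbered 6 instead of 3 with the GC trend removed, and receptor adaptor and kinase genes higher there numbered 3 instead of 5 without the count filter and without 4 of the single libraries. Among same-numbered pairs of libraries, 1 of 18 had deviations correlated above 0.1 (−0.337 to 0.221). With 3 libraries per group and no differently numbered pairs compared, this cannot exclude a culture or batch shared by replicate number. With a replicate block, 4113, 9579, 9459, 1806 and 591 genes were called in the comparisons in the order above, and no member's call changed, while the calls of NRG4 and RPS6KA1 in TGFB against con, LRIG3 in the interaction and EGR1 in SiNAT10 against con were lost.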

Other observations

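Of 20 adaptors and kinases between the receptors and ERK, 7 were higher and 9 lower in SiNAT10_TGFB against TGFB (median −0.13; 5 lower with library size scaling), and 5 were higher and 9 lower in SiNAT10 against con (median −0.04). Over all genes 26.3% were higher and 26.8% lower in SiNAT10_TGFB against TGFB, and 26.4% were higher and 26.4% lower in SiNAT10 against con. The RAS exchange factors went in opposite directions. SOS1 was at 37.9 ± 3.14 CPM in SiNAT10_TGFB and 69.3 ± 5.31 CPM in TGFB (log2 −0.87, SE 0.088, adjusted p = 1.69e-08), and at 38.9 ± 4.86 CPM in SiNAT10 and 73.4 ± 4.27 CPM in con (log2 −0.92, SE 0.088, adjusted p = 7.47e-09). SOS2 was at 95.7 ± 4.85 CPM in SiNAT10_TGFB and 71.6 ± 2.24 CPM in TGFB (log2 0.42, SE 0.072, adjusted p = 3.02e-05), and higher by 0.33 in SiNAT10 against con. KSR1, a scaffold of the RAF-MEK-ERK cascade, was lower in SiNAT10_TGFB than in TGFB (log2 −1.02, SE 0.10, adjusted p = 2.25e-08), and MAP2K1, the ERK kinase MEK1, was higher in SiNAT10 than in con (log2 0.42, SE 0.057, adjusted p = 1.34e-06).

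With TGF-β1, 3 of these 20 genes were higher and 2 lower in TGFB against con (median 0.02, with 24.1% of all genes called), or 0 and 7 with library size scaling. HRAS was higher by 0.32 and KSR1 by 0.35, and RPS6KA3 was lower by a log2 fold change of −0.24. The calls of HRAS and KSR1 were lost with library size scaling (0.19 and 0.22) and without con replicate 1 for HRAS or con replicate 3 or TGFB replicate 3 for KSR1, and that of RPS6KA3 without TGFB replicate 1. In SiNAT10_TGFB against SiNAT10, 0 of 20 were called by edgeR's quasi-likelihood test, 0 by DESeq2, and 0 had an unadjusted p under 0.05, while 2 were called with the GC trend removed and 1 without SiNAT10 replicate 3. Of all genes tested, 11.1% were called by edgeR there.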
